A study of Mus musculus with 4 samples.

Results

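Respiratory complex I takes electrons from NADH at the start of the respiratory chain and pumps protons across the inner mitochondrial membrane. Most of its subunits come from nuclear genes, but the hydrophobic core of its membrane arm is encoded by the mitochondrial genome. Its 7 mitochondrially encoded subunits are described here, each by its transcript identifier: mt-Nd1 (ENSMUST00000082392.1), mt-Nd2 (ENSMUST00000082396.1), mt-Nd3 (ENSMUST00000082411.1), mt-Nd4l (ENSMUST00000084013.1), mt-Nd4 (ENSMUST00000082414.1), mt-Nd5 (ENSMUST00000082418.1) and mt-Nd6 (ENSMUST00000082419.1). They are 7 of the 116912 transcripts listed in each deposited table, and all 7 were found there.

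RNA was measured in the dorsal root ganglion, which holds the cell bodies of sensory neurons with their glia, in adult mice without injury or 72 hours after the sciatic nerve was injured with forceps. Uninjured bulk and injured bulk RNA came from whole lysates of wild-type CD-1 mice, with no antibody step, and were sequenced as RNA with a nanopore direct RNA kit. Uninjured RiboTag and injured RiboTag RNA came from RPL22HA+/+;Advillin-Cre+ mice, a cross of the tagged strain B6N.129-Rpl22tm1.1Psam/J with the Cre strain B6.129P2-Aviltm2(cre)Fawa/J, were pulled down with an anti-HA antibody, and were sequenced after a nanopore cDNA-PCR barcoding kit. Each of these 4 groups was 1 sample. In RiboTag mice, Cre switches on an HA tag on Rpl22, a protein of the large subunit of the cytosolic ribosome. Advillin-Cre is a driver active in sensory neurons, so that the antibody takes ribosomes of these cells. The kit, strain, genotype and pull-down all differ between bulk and RiboTag RNA, and their effects cannot be told apart. The labels do not say how many animals were pooled.

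Mitochondrial mRNAs are made and translated inside the organelle, on mitochondrial ribosomes that do not contain Rpl22. They are transcribed as long precursors from both strands of the mitochondrial genome and are cut apart, mostly at tRNAs. Both nanopore kits capture RNA at the poly(A) tail, which is short on most mitochondrial mRNAs. The tails were not examined here for any of the subunits, mt-Nd6 included. mt-Nd6 is the subunit encoded on the light strand, and the mature mRNAs of the others come from the heavy strand. mt-Nd4l and mt-Nd4 are known to remain together on a shared mRNA with overlapping reading frames. In RefSeq's table for GRCm38.p6 the genes of mt-Nd4l and mt-Nd4 overlap, as do the neighbouring genes of mt-Nd5 and mt-Nd6. Whether the authors' counting used strand is not given in the sources used here, so reads in those overlaps are of uncertain origin.

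Depth differed between assays, with a mean of 592935 and 529332 estimated reads in uninjured and injured bulk RNA and 207597 and 79334 in uninjured and injured RiboTag RNA. Each table gave 3 numbered columns per library. For the 23 subunit values with 15 or more reads over the columns, the 3 columns differed by a chi-square of 0.0320 to 5.76 on 2 degrees of freedom, and 0 of the 23 exceeded the critical value of 5.99. The share of other transcripts with 20 or more reads that exceeded it was 22.3%, 21.1%, 14.3% and 16.2% in the same order of libraries. The columns were averaged and counted as 1 sample, so that no p-value between conditions is given and every interval below is a 95% interval for counting error only. In RiboTag RNA a pair of other transcripts took 31.2% of reads without injury and 40.9% after it, against 0.0189% and 0.0191% in bulk RNA, which lowers the scaled level of everything else there. The files pair no identifiers with gene symbols, so markers of neurons, glia or other cells were not examined.

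The 7 subunits together took 2.02% of bulk reads without injury (exact binomial interval 1.98% to 2.05%) and 1.75% after it (1.72% to 1.79%). In RiboTag RNA they took 0.0812% (0.0692% to 0.0941%) and 0.0904% (0.071% to 0.114%). This is 11967 and 9284 reads in bulk RNA and 168 and 71.7 reads in RiboTag RNA, so the RiboTag values rest on few reads. Levels below are in the deposited TPM, which is the read count scaled to 1000000 per column with no division by transcript length.

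mt-Nd1, the subunit next to the quinone-binding site, had 3947, 3939 and 3942 reads in the uninjured bulk columns and 3237, 3120 and 3196 in the injured ones. In RiboTag RNA it had 42, 53 and 45 reads without injury and 21, 14.96 and 20 after it. Its mean level was therefore 6650 and 6016 TPM in bulk RNA against 225 and 235 TPM in RiboTag RNA, with every bulk column far above every RiboTag column.

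mt-Nd4, an antiporter-like subunit of the proton-pumping arm, had 3521, 3586 and 3539 reads in uninjured and 3034, 3071 and 3032 in injured bulk RNA. Its RiboTag columns held 76.3, 80.6 and 75.5 reads without injury and 29.1, 45.9 and 34 after it. The mean was 5984 and 5754 TPM in bulk and 373 and 458 TPM in RiboTag RNA, again with every bulk column above every RiboTag column.

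mt-Nd2, another antiporter-like subunit, had 1708, 1823 and 1750 reads in uninjured and 1315, 1290 and 1258 in injured bulk RNA. Its RiboTag columns held 14, 11 and 15 reads without injury and 5, 5 and 4 after it. The mean level was 2969 and 2433 TPM in bulk RNA and 64.2 and 58.8 TPM in RiboTag RNA. The RiboTag columns without and with injury overlapped on this scale.

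mt-Nd5, the largest of the 7 and also antiporter-like, had 572, 571 and 522 reads in uninjured and 463, 426 and 465 in injured bulk RNA. In RiboTag RNA it had 6.77, 11.0 and 11.2 reads without injury, and 8, 1 and 8 after it. Its means were 937 and 853 TPM in bulk and 46.5 and 71.4 TPM in RiboTag RNA. The second column of injured RiboTag RNA stood apart from the first and the third for this subunit, and the column chi-square there, 5.76, was the highest among the 23 values.

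mt-Nd6, the light-strand subunit, had 502, 480 and 485 reads in uninjured and 306, 291 and 308 in injured bulk RNA. Its RiboTag columns held 20.2, 12.96 and 20.8 reads without injury and 7, 6 and 5 after it. The mean was 825 and 570 TPM in bulk and 86.7 and 75.6 TPM in RiboTag RNA. In bulk RNA the columns without and with injury did not overlap, and in RiboTag RNA they did.

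mt-Nd3, a small membrane subunit, had 1669, 1634 and 1627 reads in uninjured and 996, 999.8 and 987 in injured bulk RNA, or 2771 and 1878 TPM. In RiboTag RNA it had 0, 3.83 and 2 reads without injury and 1, 0 and 0 after it. Both RiboTag means, 9.36 and 4.21 TPM, lay under the 3 reads that a count of 0 allows, which are 14.5 TPM without and 37.8 TPM with injury. mt-Nd3 was thus well measured in bulk RNA and at the limit of detection in RiboTag RNA.

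mt-Nd4l, the smallest of the 7 subunits, was low in all libraries. It had 29.7, 34.3 and 19.6 reads in uninjured and 23.9, 13.7 and 17.3 in injured bulk RNA, a mean of 47.0 and 34.6 TPM. In RiboTag RNA it had 2.22, 0 and 2 reads without injury and 0 in each column after it. With the columns averaged, the 0 after injury allows up to 37.8 TPM, which is above the injured bulk level. On that scale no difference between the assays was detectable for it in that state, although every bulk column lay above every RiboTag column.

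**Figure D1:**
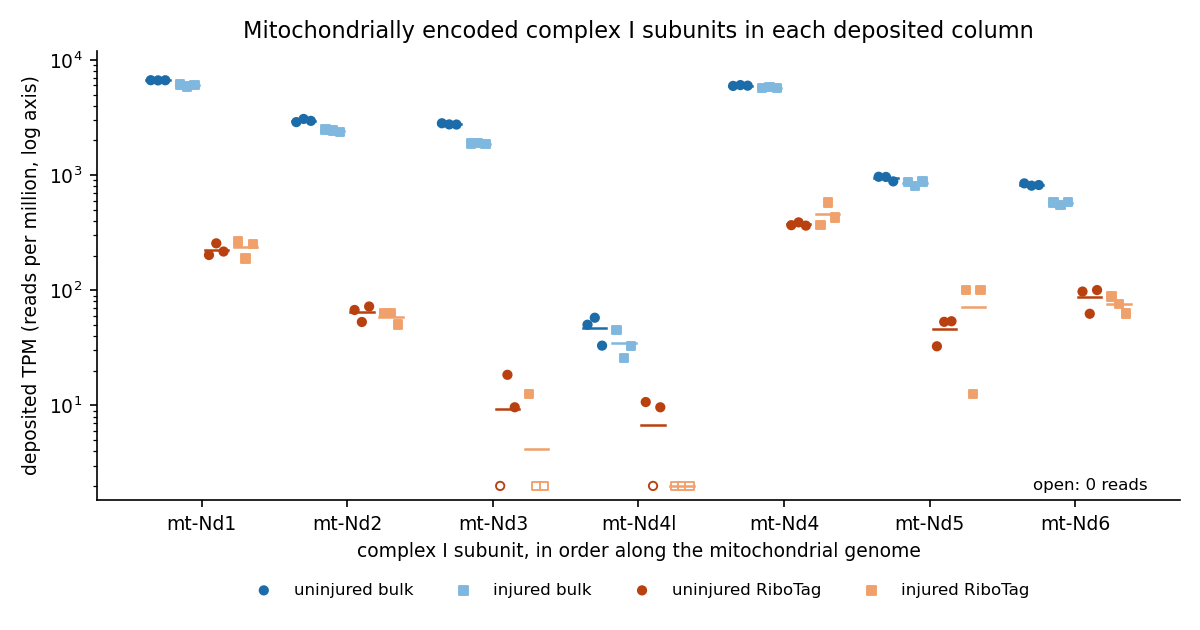
Deposited TPM (reads scaled to 1000000 per column, log axis) of each subunit in the 3 columns of each library, with a bar at their mean and columns with 0 reads drawn as open symbols at the foot of the plot. For each of the 7 subunits every bulk column lies above every RiboTag column, and for mt-Nd3 and mt-Nd4l some RiboTag columns are at 0. For mt-Nd4l after injury the 0 allows up to 37.8 TPM with the columns averaged, so on that scale no difference was detectable there.

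The order of the subunits was compared by reads and per length, as TPM per kilobase of the gene's length in RefSeq's table for GRCm38.p6. Both kits capture RNA at the poly(A) tail, and whether reads rise with gene length here was not tested. The order per length therefore depends on that division. By reads mt-Nd1 led in uninjured bulk RNA with 6650 TPM, followed by mt-Nd4 (5984), mt-Nd2 (2969) and mt-Nd3 (2771). These led in the same order after injury. Per length in uninjured bulk RNA mt-Nd3 led with 7962 TPM per kilobase, followed by mt-Nd1 (6948), mt-Nd4 (4343), mt-Nd2 (2860), mt-Nd6 (1589), mt-Nd5 (514) and mt-Nd4l (158). No neighbours in this order had overlapping counting intervals. In injured bulk RNA mt-Nd1 (6286) stood above mt-Nd3 (5397), and the remaining order was as without injury, again with no overlap between neighbours. Of the pair that shares an mRNA, mt-Nd4 had 27.5 times the reads of mt-Nd4l per length without injury (interval 18.9 to 41.2) and 35.9 times after it (23.0 to 61.6). By reads alone these ratios were 127 and 167.

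In RiboTag RNA the order per length was different. mt-Nd4 led with 271 TPM per kilobase without injury and 333 after it, followed by mt-Nd1 (235 and 246), mt-Nd6 (167 and 146) and mt-Nd2 (61.9 and 56.7). mt-Nd3, mt-Nd5 and mt-Nd4l lay below these, at 26.9, 25.5 and 22.8 without injury and 12.1, 39.2 and 0 after it. Each pair of neighbours overlapped within its counting intervals in both states, so this order is only coarse. mt-Nd3 had 5.01 times the reads of mt-Nd6 per length in uninjured bulk RNA (4.53 to 5.55) and 0.161 times in uninjured RiboTag RNA (0.0186 to 0.692). By reads alone these ratios were 3.36 and 0.108.

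RiboTag RNA was then compared with bulk RNA, since the study's title asks how efficiently mRNAs associate with ribosomes. All 7 subunits were lower in RiboTag RNA without injury, counted as a ratio of at least 2-fold with an interval that excluded no change, among transcripts with 20 or more reads. By the same rule 44.1% of the 6174 transcripts tested were lower. The median log2 ratio was -4.26 for the 7 and -0.98 for all transcripts tested. After injury 6 of the 7 were tested and all 6 were lower, where 36% of 5045 transcripts were, and the median was -4.14 against -1.25. Setting mt-Nd3 to its bound could not change this median, since it remained the lowest of the 6 values.

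The subunits together were 24.8-fold lower in RiboTag RNA without injury, a log2 ratio of -4.63 (-4.87 to -4.42). After injury they were 19.3-fold lower, at -4.27 (-4.63 to -3.94). Leaving the dominant pair out of the library totals moved these to -4.09 and -3.51, the second by more than 1.5 times on the fold scale, and both stayed on the same side of the threshold. The tagged ribosome is cytosolic and these mRNAs are mitochondrial. The source of their remaining RiboTag reads was not tested.

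The size of the difference varied widely among the 7. Without injury mt-Nd3 had the lowest log2 ratio, -7.88 (-11.21 to -6.31). This value rests on a mean of 1.94 RiboTag reads, under the limit of 3, and it was -6.38 with a pseudocount of 5 reads and -8.59 without the second column, so its size is only coarsely known. After injury mt-Nd3 was 49.7-fold lower in RiboTag RNA if 3 reads are taken for that library, a log2 ratio of -5.63. Its interval had no lower end and an upper end of -5.33, so the difference may be smaller. Without the dominant pair in the totals the upper end was -4.57. mt-Nd2 and mt-Nd1 came next without injury, at -5.48 (-6.48 to -4.79) and -4.87 (-5.32 to -4.46). After injury they had -5.22 (-6.90 to -4.04) and -4.64 (-5.38 to -4.01). These 3 subunits lay in the lowest 5% of tested transcripts in both states, with 4.66% of transcripts below mt-Nd1 without injury and 3.03% after it.

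mt-Nd5 and mt-Nd4 differed less, with log2 ratios of -4.26 (-5.35 to -3.39) and -3.99 (-4.36 to -3.69) without injury. After injury they stood at -3.46 (-4.95 to -2.36) and -3.63 (-4.18 to -3.19). mt-Nd6 had a log2 ratio of -3.21 (-4.02 to -2.57) without injury, with 16.2% of tested transcripts below it, and -2.80 (-4.37 to -1.78) after it. The value for mt-Nd4l without injury, -2.38 (-8.65 to -0.70), rests on a mean of 1.41 RiboTag reads, and with a pseudocount of 5 reads it was -0.84 and no longer counted as lower.

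**Figure D2:**
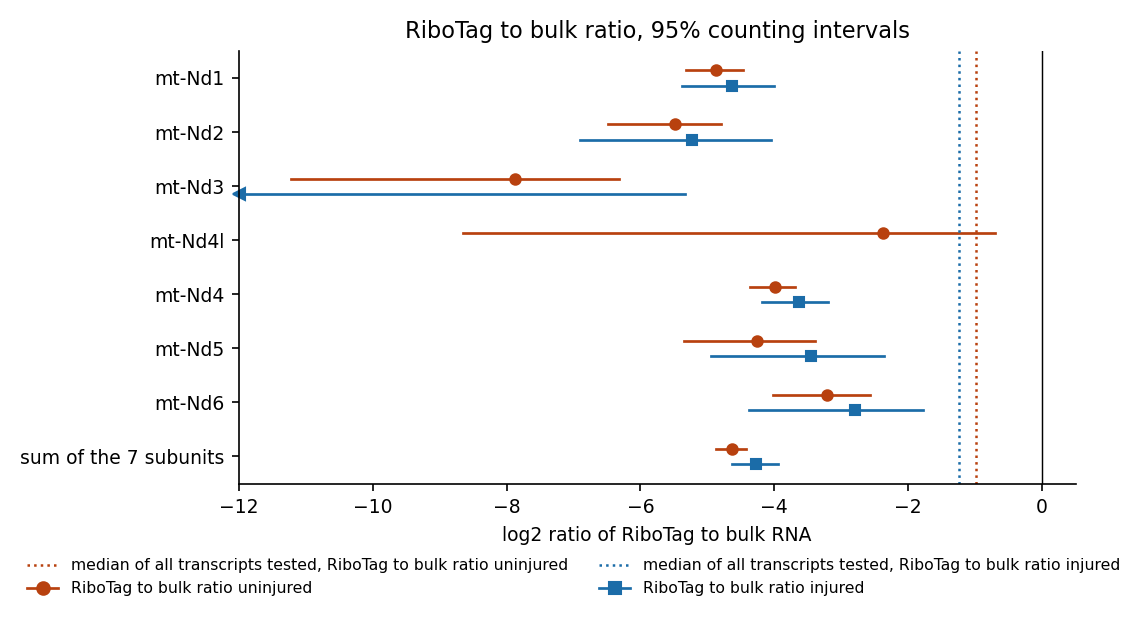
Log2 ratio of RiboTag to bulk RNA for each subunit and their sum, without injury (circles) and after it (squares), with 95% counting intervals; dotted lines are the medians of all transcripts tested, -0.98 and -1.25. The arrow at mt-Nd3 after injury marks an interval with no lower end, and mt-Nd4l after injury had too few reads to be tested.

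**Figure D3:**
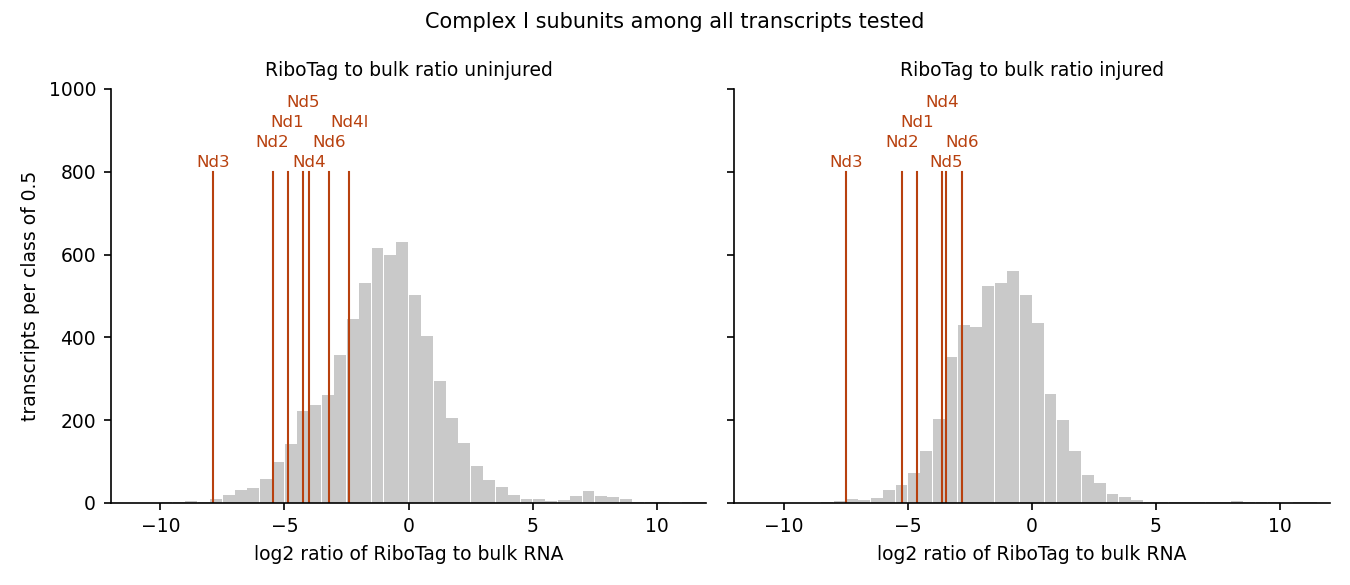
Number of tested transcripts in each class of 0.5 on the log2 RiboTag to bulk scale (grey bars), with the subunits marked by lines, without injury (left) and after it (right). All subunits tested lie left of the medians of -0.98 and -1.25, mt-Nd3 farthest; the position of its line depends on the pseudocount in both panels.

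The make-up of the complex I reads shows these differences without reference to the library totals or the dominant pair. mt-Nd4 made up 29.7% of the reads of the 7 in uninjured bulk RNA (28.8% to 30.5%) and 46.0% in uninjured RiboTag RNA (38.1% to 53.7%). mt-Nd6 made up 4.09% (3.74% to 4.46%) and 10.7% (6.47% to 16.4%). mt-Nd3 made up 13.7% (13.1% to 14.4%) in bulk and 1.15% (0.144% to 4.23%) in RiboTag RNA. mt-Nd2 had 14.7% (14.1% to 15.4%) against 7.91% (4.18% to 12.9%). For mt-Nd1, at 32.9% and 27.7%, and mt-Nd5, at 4.64% and 5.73%, the intervals overlapped.

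Set against the other 6 subunits, the RiboTag to bulk ratio without injury was higher for mt-Nd6 by 1.52 (0.69 to 2.22) and for mt-Nd4 by 1.01 (0.54 to 1.46) on the log2 scale, with exact conditional intervals of the odds ratio. It was lower for mt-Nd3, at -3.44 (-6.79 to -1.85), and for mt-Nd2, at -0.96 (-1.98 to -0.22). After injury the intervals excluded no difference for mt-Nd4, at 1.08 (0.36 to 1.79), and for mt-Nd3, whose interval had no lower end and an upper end of -1.17. For mt-Nd6 the value was 1.55 (-0.07 to 2.65) and for mt-Nd2 -1.07 (-2.78 to 0.19). For the overlapping neighbours mt-Nd6 and mt-Nd5 the difference was 1.05 (-0.18 to 2.32) without injury and 0.66 (-1.34 to 2.50) after it, and both intervals included no difference. mt-Nd4 was less reduced than mt-Nd1, by 0.88 (0.32 to 1.42) without and 1.01 (0.14 to 1.87) with injury.

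**Figure D4:**
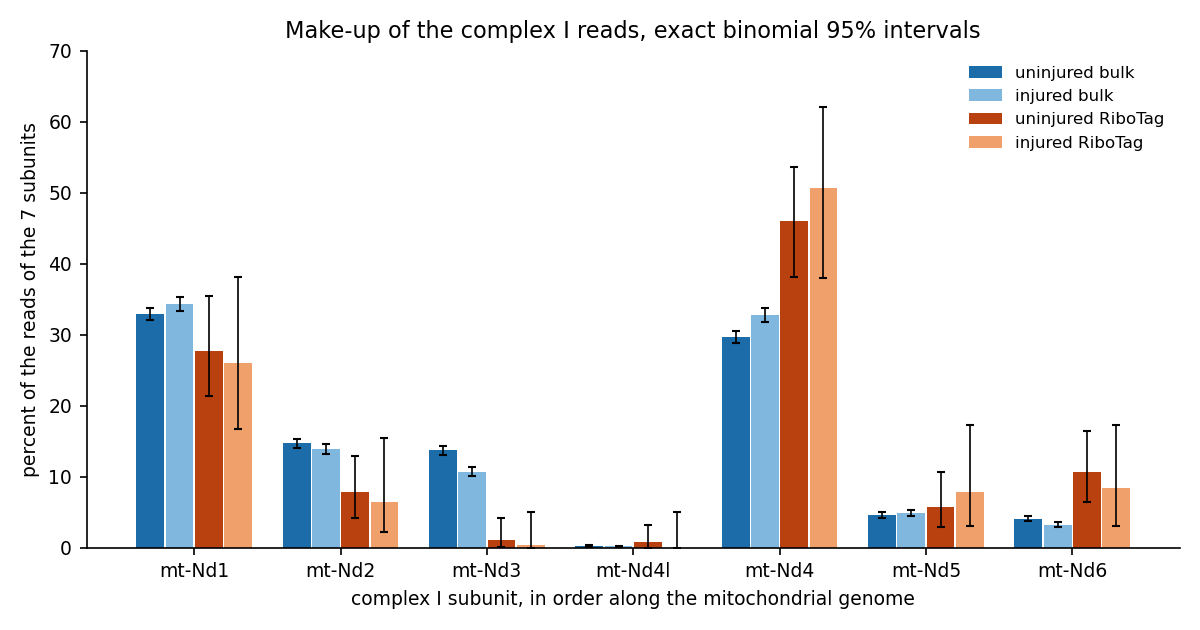
Percent of the reads of the 7 subunits taken by each, in the 4 libraries, with exact binomial 95% intervals as error bars. mt-Nd4 takes 46.0% and 50.7% in RiboTag RNA against 29.7% and 32.8% in bulk RNA, and mt-Nd3 takes 13.7% and 10.7% in bulk RNA and almost nothing in RiboTag RNA.

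Nerve injury was examined first in the whole ganglion. None of the 7 subunits reached a 2-fold difference between injured and uninjured bulk RNA, where 9.76% of 7739 transcripts did in either direction. All 7 had a negative log2 ratio, as did 3893 of the 7739 transcripts tested. The median was -0.29 for the 7 against -0.00 for all transcripts tested. The interval lay below no change for 4 of the 7, where 7.07% of all transcripts had such an interval. Deep transcripts have narrower intervals, so this was also read among transcripts with 500 or more bulk reads, a limit chosen after the values were seen. There 4 of 6 subunits had such an interval, against 12.5% of 304 transcripts. In whole-ganglion RNA, fewer cells of a type and less RNA per cell cannot be told apart.

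The bulk values differed among the subunits. mt-Nd3 had a log2 ratio of -0.56 (-0.68 to -0.45), a difference in level of -32.2%. mt-Nd6 had -0.53 (-0.74 to -0.32), a difference of -30.9%. mt-Nd2 had -0.29 (-0.39 to -0.18) and mt-Nd1 -0.14 (-0.21 to -0.08). For mt-Nd4, at -0.06 (-0.13 to 0.01), mt-Nd5, at -0.13 (-0.32 to 0.05), and mt-Nd4l, at -0.43 (-1.41 to 0.43), the intervals included no change. The summed subunits had -0.20 (-0.24 to -0.16), a difference of -13.1%.

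Within the family, the injury ratio of mt-Nd3 against the other 6 subunits was -0.41 (-0.53 to -0.29) in bulk RNA and that of mt-Nd6 was -0.34 (-0.56 to -0.13). mt-Nd4, at 0.21 (0.13 to 0.30), and mt-Nd1, at 0.09 (0.00 to 0.17, with a lower end of 0.0039), stood the other way. mt-Nd3 and mt-Nd6 are encoded on different strands and are not neighbours, and the difference between their injury ratios was -0.03 (-0.27 to 0.21). mt-Nd6 stood below the overlapping mt-Nd5 by -0.40 (-0.68 to -0.12). Only the share of mt-Nd4 (29.7% to 32.8%), mt-Nd3 (13.7% to 10.7%) and mt-Nd6 (4.09% to 3.25%) had intervals that did not overlap between the bulk libraries.

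In RiboTag RNA 3 of the 7 subunits had enough reads for an injury comparison, and 0 of them reached 2-fold, where 11% of 1866 transcripts did. Their log2 ratios were 0.31 (-0.32 to 0.88) for mt-Nd4, 0.09 (-0.77 to 0.88) for mt-Nd1 and -0.12 (-1.82 to 1.20) for mt-Nd6. The median of all transcripts tested was -0.21. The summed subunits had 0.16 (-0.25 to 0.57), or 0.38 (-0.03 to 0.79) without the dominant pair in the totals. Changes within these intervals were not detectable at this depth.

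**Figure D5:**
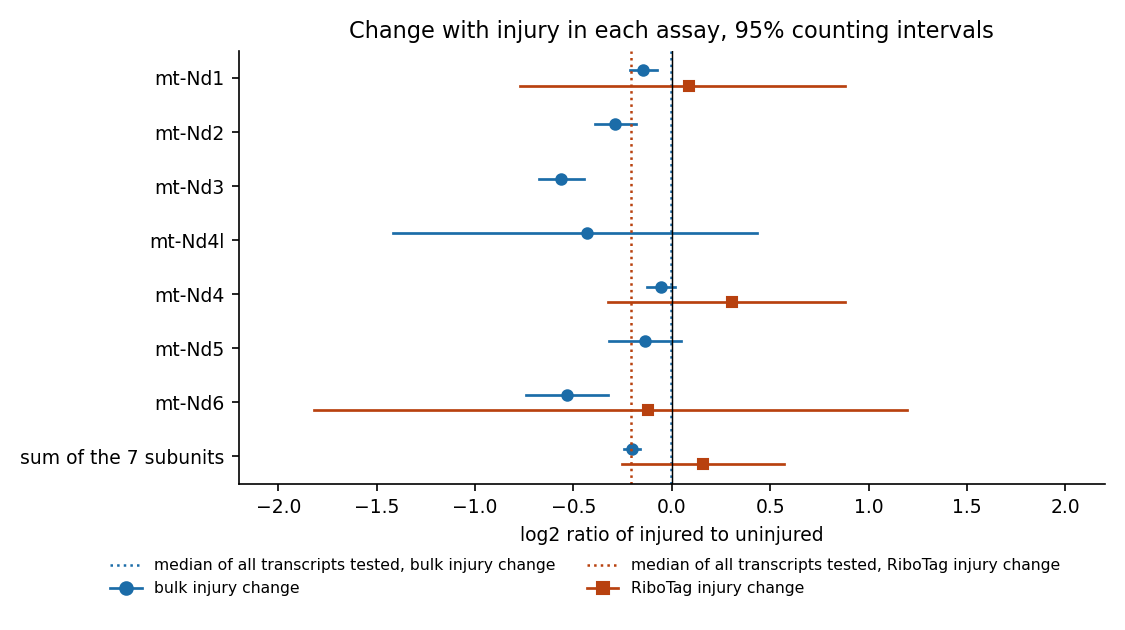
Log2 ratio of injured to uninjured RNA for each subunit and their sum, in bulk (circles) and RiboTag RNA (squares), with 95% counting intervals; dotted lines are the medians of all transcripts tested, -0.00 and -0.21. All bulk values lie below 0, mt-Nd3 and mt-Nd6 lowest, and the RiboTag intervals are wide.

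The injury change of the RiboTag to bulk ratio was measurable for 5 of the 7 subunits, those with 5 or more reads in each assay. All 5 had a positive value, as did 2295 of the 4905 transcripts tested. The median log2 change was 0.36 for the 5 against -0.07 for all transcripts tested. Of the 5, 0 were counted as changed, where 6.24% of transcripts were. The values were 0.80 (-0.65 to 2.26) for mt-Nd5, 0.41 (-0.90 to 1.72) for mt-Nd6, 0.36 (-0.21 to 0.93) for mt-Nd4, 0.25 (-1.21 to 1.72) for mt-Nd2 and 0.23 (-0.54 to 1.001) for mt-Nd1. The 5 share their libraries and totals and are not independent. For the sum the change was 0.36 (-0.04 to 0.76), and without the dominant pair in the totals it was 0.58 (0.18 to 0.98). Those totals also moved the median of all transcripts tested, to 0.15. With a pseudocount of 5 reads that median was 0.50, above the sum at 0.41.

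The 6 other mitochondrially encoded mRNAs, which specify subunits of complexes III, IV and V, were given as a list in the same way. Their identifiers were assigned to these complexes from general knowledge of the annotation, since the files give no symbols. Together they took 6.25% of uninjured bulk reads and 0.136% of uninjured RiboTag reads, a log2 ratio of -5.52 (-5.70 to -5.35), and all 6 were counted as lower. Their ratio after injury was -5.48 (-5.80 to -5.20). As a sum the complex I subunits were less reduced. Their summed RiboTag to bulk ratio, set against that of the 6 others, was higher by 0.89 (0.60 to 1.17) without injury and by 1.21 (0.75 to 1.68) after it. mt-Nd4 alone held 46.0% of the uninjured RiboTag reads of the 7. Single ratios of the 2 groups overlapped without injury, from -7.88 to -2.38 for the 7 and from -6.85 to -1.82 for the 6. After injury the values of -5.48 and 1.21 rest on columns that differed more than counting noise. The summed 6 had 63, 107 and 112 reads in the columns of injured RiboTag RNA, a chi-square of 15.4, and ENSMUST00000082409.1 among them had 0, 32 and 39.

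With injury, the level of the 6 others in bulk RNA differed by -14.9%, a log2 ratio of -0.23 (-0.25 to -0.21). The injury ratio of the complex I subunits against that of the 6 others was 0.03 (-0.02 to 0.08), an interval that included no difference. All 6 had an interval below no change in bulk RNA, against 4 of the 7 complex I subunits. The single values of the 6 ranged from -1.19 to -0.11, and 1 of the 6, ENSMUST00000082407.1, was counted as lower, on 28.2 and 10.7 reads. Columns of the summed 6 differed more than counting noise in bulk RNA, with chi-squares of 26.7 and 59.3, while those of the summed complex I subunits gave 1.11 and 1.69. For the injury change of the RiboTag to bulk ratio, 5 of the 6 were tested, with a median of 0.16. Of these 3 were positive and 2 negative, and 0 were counted as changed. The interval lay above no change for 2 of them, and for 0 of the 5 complex I subunits tested. Among all 4905 transcripts tested, 143 had such an interval.

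Transcripts with a like pattern over the 4 libraries were looked for by the distance between centred log2 levels, among the 63 transcripts outside the mitochondrial lists with 50 or more reads in every library. The nearest to the summed subunits was ENSMUST00000071555.13, at a distance of 1.98, with RiboTag to bulk log2 ratios of -2.65 and -2.32. The second was ENSMUST00000023826.5, at 3.19, with -0.80 and -2.21. Both were less reduced than the summed subunits, at -4.63 and -4.27. The minimum of 50 reads leaves out strongly reduced transcripts. No single subunit met it, and mt-Nd4 came closest with 36.4 reads in injured RiboTag RNA. The search therefore cannot show how common the pattern is. Of the 6174 transcripts tested without injury, 633 had a lower RiboTag to bulk ratio than mt-Nd4.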

How the data were processed

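Estimated counts and TPM were deposited by the authors in 1 table per sample, with 3 numbered columns of each. The tools named in the submitters' processing notes are minimap2 and Salmon, and the builds are GRCm39 and mm39. Versions, settings, annotation and what the 3 columns stand for: not given in the sources used here. The deposited TPM was proportional to the estimated count within each column (largest deviation 0.0499%, among counts of at least 1 read). Fractional counts show that some reads were split between transcripts, and near-identical nuclear copies of mitochondrial sequence could share reads with the subunits.

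Columns were averaged per library and scaled by the library total. Log2 ratios were taken after adding 0.5 read, with an exact conditional binomial 95% interval from counts rounded to whole numbers. Shares have exact Clopper-Pearson intervals, and ratios between subunits exact conditional intervals of the odds ratio. The change of the ratio has a normal interval from the 4 counts. All transcripts with 20 or more reads over the libraries compared were fitted. The rule was also run on simulated counts that held counting noise only. That run cannot show how the rule behaves where columns differ more than counting noise. Nanopore reads carry no molecular identifiers, so intervals and floors cover counting error only. A floor of 3 reads per library stood for a count of 0. Alternatives were TMM scaling (edgeR 4.0.16), size factors (DESeq2 1.42.0), other totals, pseudocounts, read minimums, fold thresholds and columns. Python 3.11.15 and scipy 1.17.1 were used.

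The naming rule took all 7 subunits, the 6 other mitochondrial mRNAs and 2 rRNAs as lists, and the 2 nearest transcripts. The tables list 0 of the 2 rRNAs under the identifiers used. Nuclear complex I subunits and cell type markers were part of the plan and were not analysed here, since no symbols could be matched. Members and lists were chosen with earlier results of these data known.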

Additional observations from a re-analysis of the deposited data

Results flagged for a closer look

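The injury ratio had opposite signs in the assays for mt-Nd1 (bulk -0.14, RiboTag 0.09), for mt-Nd4 (bulk -0.06, RiboTag 0.31) and for the summed subunits (bulk -0.20, RiboTag 0.16). The difference of the RiboTag and bulk log2 changes was 0.23 for mt-Nd1, 0.36 for mt-Nd4 and 0.36 for the sum. With 1 library per group the difference was not tested, and its counting interval included 0 for each of these 3 results as reported. The positive RiboTag value of mt-Nd1 was lost under other settings, at -0.01 with TMM scaling, -0.03 with DESeq2 size factors and -0.07 without the first column. For mt-Nd4 the interval of the difference excluded 0 without the dominant pair in the totals, at 0.58 (0.01 to 1.15), and with summed columns, at 0.36 (0.03 to 0.69). For the sum it excluded 0 without that pair, with summed columns and with a pseudocount of 5 reads. The median difference of all transcripts tested moved as well. It was -0.07 as reported, 0.15 without that pair, -0.10 with summed columns and 0.50 with a pseudocount of 5 reads. With that pseudocount the sum, at 0.41, lay below the median.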

How the results depend on the processing

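No paired analysis was possible because each group was 1 sample and the columns of a library are not replicates. The alternatives kept the direction of the summed subunits in all 5 comparisons, with 0 reversed values. Their RiboTag to bulk log2 ratio without injury moved beyond its interval to -4.36 (TMM), -4.35 (DESeq2 size factors) and -4.09 (totals without the dominant pair), and after injury to -3.51 (totals without the dominant pair). Those totals also moved the subunits' share of RiboTag reads to 0.118% and 0.153%. The interval for the ratio change of the sum excluded no change with those totals, with summed columns (0.13 to 0.59) and with a pseudocount of 5 (0.01 to 0.81). Under these settings the median of all transcripts tested was 0.15, -0.10 and 0.50, in that order.

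Counts over all transcripts moved more. Bulk injury (755 calls) gave 316 with a minimum of 50 reads, 1582 with none and 2071 with summed columns. RiboTag injury (205) gave 86, 441 (239 higher, 202 lower) and 1046, and with a pseudocount of 5 it gave 117 (60, 57). The uninjured ratio (3617) gave 1927 at 50 reads and 7110 summed, the injured ratio (2202) 1157 at a pseudocount of 5 (404, 753) and 5130 summed, and the ratio change (306) 119 at a pseudocount of 5 (85, 34) and 1396 summed. Totals without the dominant pair turned the split of higher and lower calls to 89 and 85 (RiboTag injury, from 55 and 150), 1271 and 1955 (uninjured ratio, from 894 and 2723), 679 and 892 (injured ratio, from 388 and 1814) and 194 and 118 (ratio change, from 129 and 177). With no minimum the splits were 2166 and 3194, 1361 and 1814, and 244 and 210 for the last 3. Summing the columns triples the reads and narrows every interval; for other shifts the cause was not tested. RiboTag values of mt-Nd3 and mt-Nd4l rest on under 3 reads in both states.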
